A study of Mus musculus with 30 samples.

Results

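Mouse 3T3-L1 cultures that carried the same treatment label differed widely in how far they had turned into adipocytes by the 12 day time point, and that difference followed the number of the culture replicate. The 10 libraries of that time point were compared as culture replicates 3 and 4 (4 libraries, 2 with quizalofop-p-ethyl and 2 controls) against culture replicates 1, 2 and 5 (6 libraries, 3 with quizalofop-p-ethyl and 3 controls), out of 30 libraries in the series. 3T3-L1 is an established line of mouse embryonic fibroblasts that can be driven to become fat cells. Quizalofop-p-ethyl (QpE) is an aryloxyphenoxypropionate herbicide that inhibits the plastid acetyl-CoA carboxylase of grasses, and it was given at 50 µM. Every culture, controls included, had been in a differentiation medium with 500 µM isobutylmethylxanthine, which raises cAMP, and 100 nM insulin. The labels do not name what the control cultures received in place of QpE, and dexamethasone, the other usual inducer, is not listed for that medium. The same 5 culture numbers also stand at 6 h and 24 h, with 4 and 6 libraries in the same split. The 12 day label is used as given, although the treatment protocol in the labels describes a shorter incubation.

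The split by replicate number was chosen from these 12 day values, so the 12 day difference between the sets is given below as a description without a test. Tests are given only for libraries that did not choose the split, those of 24 h and 6 h, and for the effect of QpE within and between the sets. Levels are FPKM, fragment counts scaled to transcript length and library size, summed over the named transcripts of a gene. Differences are replicates 3 and 4 minus replicates 1, 2 and 5 on the log2(FPKM + 1) scale, which understates changes of genes with low levels. At 12 days a difference is the mean of the differences within QpE and within control libraries. A gene was counted as higher or lower at 12 days when the sets did not overlap within either treatment and the difference was at least 1. The labels do not say what a replicate number shares, such as a plate, a passage or a day, and separate origin of the cultures is not stated, so the p-values measure the spread between these libraries.

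Adipogenesis in 3T3-L1 cells runs as a cascade. The early factors C/EBP-beta and C/EBP-delta switch on PPAR-gamma and C/EBP-alpha, and this pair holds each other on and turns on the genes of lipid uptake, fatty acid synthesis, triglyceride storage and secreted adipokines. Wnt signals, TGF-beta and DLK1 are known to hold the fibroblast state. A well filled adipocyte also takes up glucose by the insulin-regulated transporter GLUT4, breaks down branched-chain amino acids, and makes fatty acids from the resulting acetyl-CoA.

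The estimated depth of the 12 day libraries was 11200000 to 13700000 read pairs in replicates 3 and 4 and 9500000 to 17400000 in replicates 1, 2 and 5, the last also being the range of the whole series. On the first principal component of the 12 day libraries (28.6% of the variance) the library of QpE replicate 5 lay apart, and the second component (22.4%) had all 4 libraries of replicates 3 and 4 on one side at loadings of 0.16 to 0.50. QpE replicate 5 lay on that side too, at 0.13, and the other libraries of replicates 1, 2 and 5 had loadings of -0.38 to -0.16. Summed adipocyte markers were 2646.7 to 7541.1 FPKM in replicates 3 and 4 and 8205.1 to 15992.2 FPKM in replicates 1, 2 and 5, so the sets did not overlap and the adipocyte markers match a weakly and a strongly differentiated set. Summed preadipocyte and fibroblast markers overlapped, at 1952.8 to 4453.5 FPKM in replicates 3 and 4 and 483.4 to 5165.5 FPKM in replicates 1, 2 and 5. Leptin (Lep), a hormone of mature fat, was below 1 FPKM in all 10 libraries. Markers of other cell types were near 0: 12 of 14 macrophage markers, among them Adgre1, Csf1r and Ptprc, and 10 of 10 endothelial markers stayed below 1 FPKM in all 10 libraries. The summed macrophage markers were 4.18 to 6.63 FPKM in replicates 3 and 4 and 3.24 to 7.05 FPKM in replicates 1, 2 and 5. Of 14 myogenic markers 12 stayed below 1 FPKM, with sums of 5.57 to 14.1 FPKM in replicates 3 and 4 and 7.77 to 19.6 FPKM in replicates 1, 2 and 5. Osteoblast and chondrocyte markers summed to 130.2 to 196.8 FPKM in replicates 3 and 4 and 21.8 to 57.4 FPKM in replicates 1, 2 and 5, while 13 of their 17 genes, Sp7, Bglap and Col2a1 included, were below 1 FPKM. Spp1 alone had 119 to 176.2 FPKM in replicates 3 and 4 and 13.8 to 40.1 FPKM in replicates 1, 2 and 5. In bulk RNA fewer adipocytes and less adipocyte RNA per cell cannot be told apart.

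Of 12744 genes tested, 192 were counted higher (1.51%) and 257 lower (2.02%) in replicates 3 and 4 at 12 days, together 3.52%. With median-ratio scaling the split was 154 higher and 321 lower. Across all genes the set differences in QpE and in control libraries had Pearson's r = 0.49 and Spearman's rho = 0.52 at 12 days (12744 genes, which are not independent replicates). The split was chosen from the 12 day values of both treatments, so this correlation is a description and not independent support. The adipocyte markers had the lowest median of the gene lists with more than 3 genes tested, at -1.76 against 0.03 over all genes, and 15 of 24 were counted lower. Next came fatty acid synthesis with 7 of 19 counted lower (median -0.86). Triglyceride synthesis and droplets had 9 of 23 (-0.72), and fatty acid uptake and insulin action 5 of 22 (-0.62). None of these 3 lists had a gene counted higher. On the other side stood the metallothionein and NRF2 list with 3 of 25 counted higher and 1 lower (0.65), the inflammatory list with 9 of 26 higher and 2 lower (0.63), and the lysosome list with 3 of 27 higher (0.54). The plot of list medians by treatment shows both treatments on the same side of 0 for the adipocyte, lipid and lysosome lists.

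**Figure D1:**
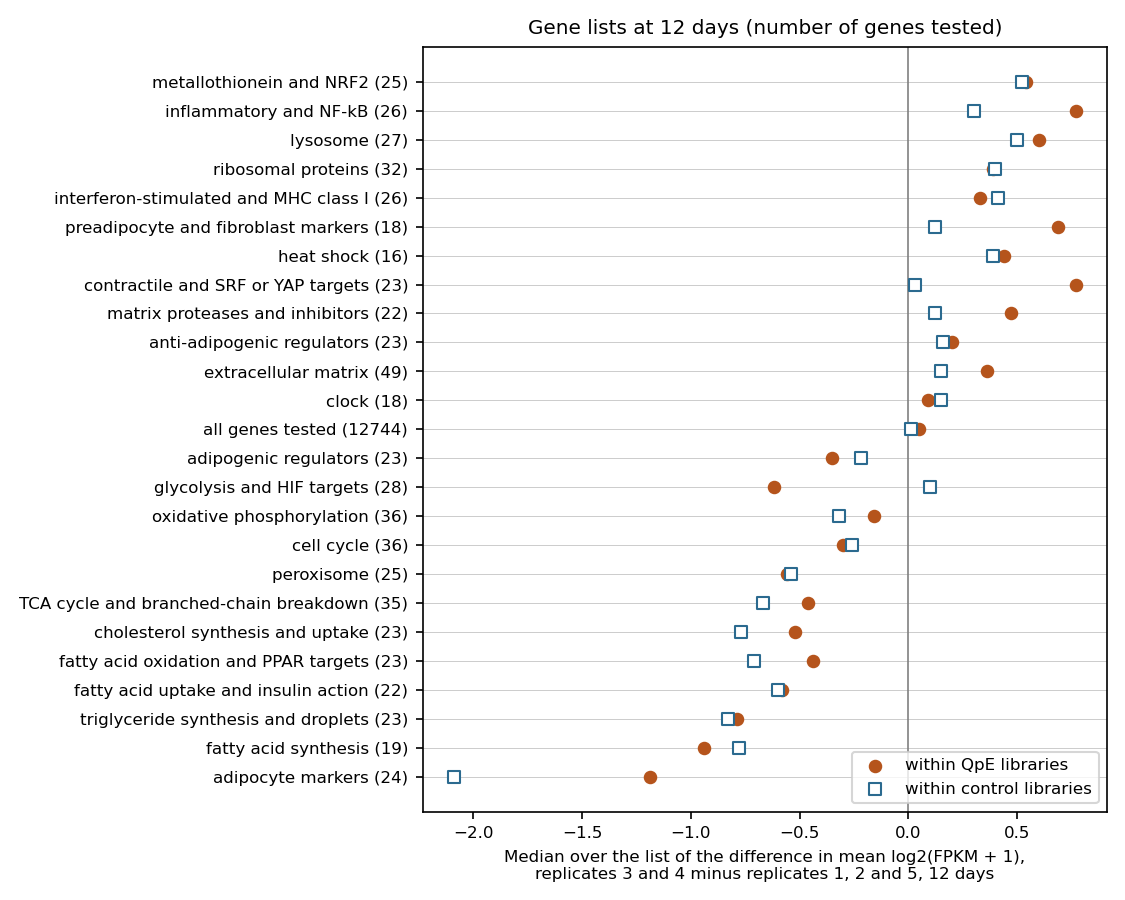
Median set difference of each gene list at 12 days, replicates 3 and 4 minus replicates 1, 2 and 5 on the log2(FPKM + 1) scale, for QpE libraries (filled circles) and control libraries (open squares). Adipocyte markers lie lowest, at -1.19 in QpE and -2.09 in control libraries, while the medians over all genes are 0.05 and 0.01; no test is attached to these values.

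The genes that stood lowest in replicates 3 and 4 belong to the lipid-filled adipocyte. Thrsp, a nuclear protein known to promote lipogenesis, had 12.8 and 9.79 FPKM with QpE and 5.16 and 2.31 FPKM in controls of replicates 3 and 4. In replicates 1, 2 and 5 it had 253.8, 312.4 and 318.2 FPKM with QpE and 107.3, 88.9 and 126.2 FPKM in controls. This was the largest negative difference among genes of at least 5 FPKM (-4.58), and the lowest value of replicates 1, 2 and 5 was far above the highest of replicates 3 and 4. Mrap, the accessory protein that lets the ACTH receptor reach the cell surface, had 8 and 9.22 FPKM with QpE and 5.31 and 3.72 FPKM in controls of replicates 3 and 4, against 133.6, 140.5 and 141.3 FPKM and 100.0, 89.4 and 104.4 FPKM in QpE and control cultures of replicates 1, 2 and 5 (difference -4.02). Gpd1, the dehydrogenase that makes the glycerol backbone of triglycerides, had 68.5 and 70.7 FPKM with QpE and 47.5 and 27.4 FPKM in controls of replicates 3 and 4, against 1003, 1032.5 and 439.8 FPKM with QpE and 873.1, 698.3 and 885.5 FPKM in controls of replicates 1, 2 and 5 (-3.95). Pck1, which makes that backbone from pyruvate carbon in fat cells, was at 0.52 to 2.87 FPKM in replicates 3 and 4 and at 7.65 to 64.4 FPKM in replicates 1, 2 and 5 (-3.99), with QpE replicate 5 lowest of its set. All 4 genes separated the sets in both treatments. Gpt, the alanine aminotransferase, was at 1.1 to 4.72 FPKM in replicates 3 and 4 and 14.2 to 85.6 FPKM in replicates 1, 2 and 5 (-3.39), and Arxes2, a gene of the adipocyte, was at 4.36 to 9.19 FPKM in replicates 3 and 4 and 30.5 to 72.3 FPKM in replicates 1, 2 and 5 (-2.97). Btd, biotinidase, differed by -3.14, and by -0.72 once unnamed assembled transcripts of its locus were joined to it.

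Several secreted and droplet proteins were lower as well, although the adipokine list was mixed, with 2 of 15 genes counted higher and 4 lower (median -0.09). Cfd, which encodes the serine protease adipsin, had 247.7 and 179.8 FPKM with QpE and 79.1 and 61 FPKM in controls of replicates 3 and 4. Replicates 1, 2 and 5 had 1866.6, 2143.7 and 1507.7 FPKM of it with QpE and 906.9, 739.8 and 1119.0 FPKM in controls (-3.40). Adipoq, the adipokine adiponectin, had 390 and 346.1 FPKM with QpE and 208.6 and 159 FPKM in controls of replicates 3 and 4, against 1153.8, 1010.1 and 586.6 FPKM with QpE and 945.1, 820.6 and 877.8 FPKM in controls of replicates 1, 2 and 5 (-1.76). Both were present in replicates 3 and 4 as well, Cfd at 61 FPKM or more and Adipoq at 159 FPKM or more. Cidec, which fuses lipid droplets, was at 17.1 to 77.4 FPKM in replicates 3 and 4 and 237.3 to 726.4 FPKM in replicates 1, 2 and 5 (-3.37). G0s2, the inhibitor of the lipase ATGL, was at 27.2 to 44.1 FPKM in replicates 3 and 4 and 155 to 292.7 FPKM in replicates 1, 2 and 5 (-2.69). Retn, the adipokine resistin, was at 4.41 to 12 FPKM in replicates 3 and 4 and 28 to 115.3 FPKM in replicates 1, 2 and 5 (-2.81).

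Not every fat cell gene split the cultures by the FPKM of its named transcripts. With unnamed transcripts joined, 20 adipocyte markers were counted lower, against 15 without joining, and 12 triglyceride and droplet genes, against 9. Overlap of a gene between the sets can thus depend on how its transcripts were named. Fabp4, the fatty acid carrier of adipocytes, had 2105.5 and 2278.4 FPKM in QpE cultures 3 and 4, close to the 1864.8 to 2644.6 FPKM of control cultures 1, 2 and 5, while control cultures 3 and 4 had 539.6 and 467.7 FPKM. Within each treatment it was still lower in replicates 3 and 4 (-1.35). Plin1, the main droplet coat protein, had 125.2 and 143.6 FPKM in QpE cultures 3 and 4, inside the 70.9 to 286.8 FPKM of QpE cultures 1, 2 and 5. In controls Plin1 had 41.5 and 41.2 FPKM in replicates 3 and 4 against 193.1, 224.4 and 135.6 FPKM in replicates 1, 2 and 5, so only the control cultures separated (difference over both treatments -1.01). Cd36, the fatty acid translocase, overlapped likewise with QpE, at 94.9 and 111.2 FPKM in replicates 3 and 4 against 102.5 to 257.4 FPKM in replicates 1, 2 and 5. It separated in controls, at 80.1 and 45.4 FPKM in replicates 3 and 4 against 416.9 to 546.1 FPKM in replicates 1, 2 and 5 (-1.87).

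**Figure D2:**
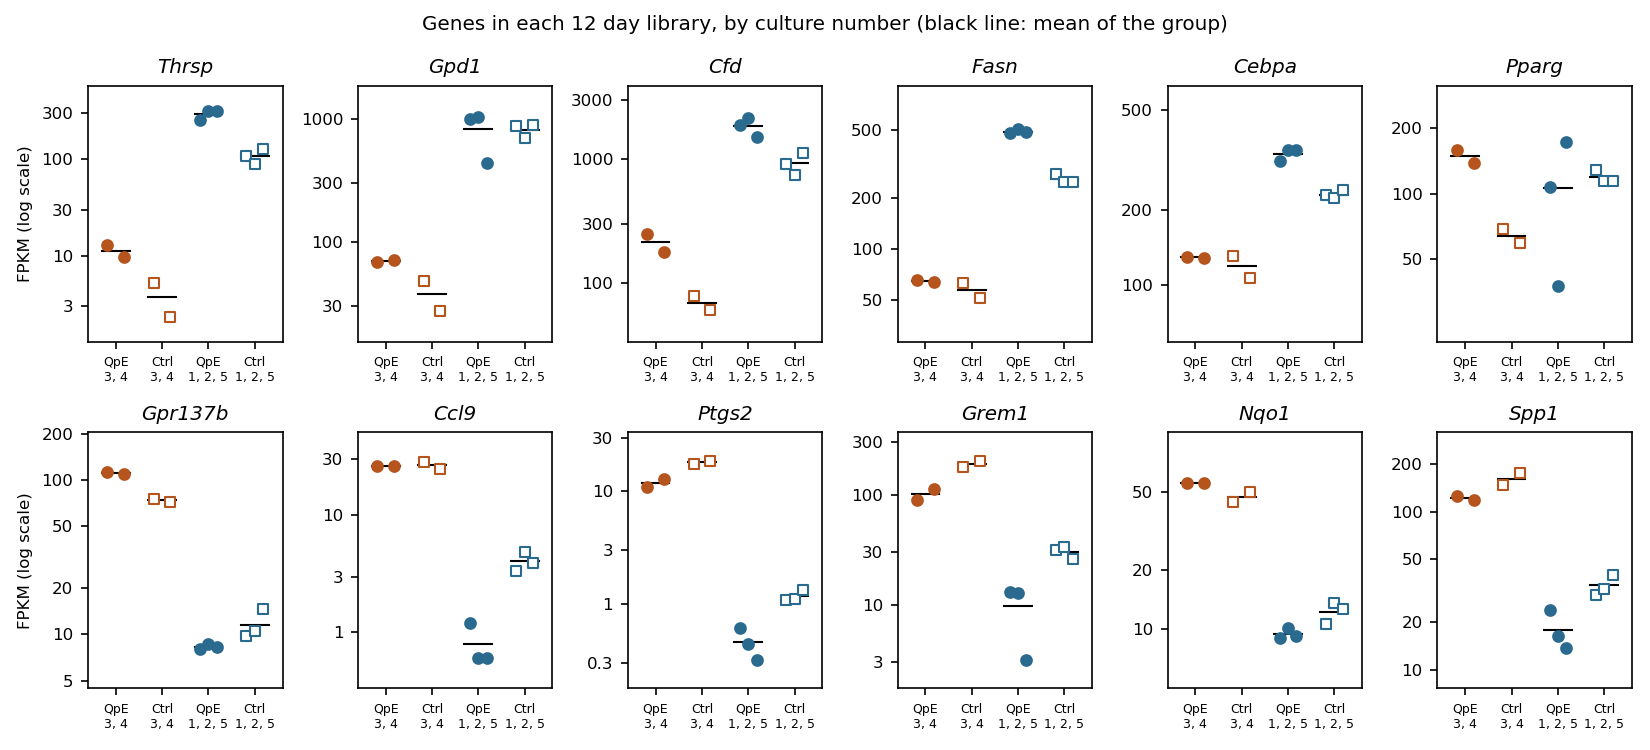
FPKM (log axes) of 12 genes in every 12 day library, in columns for QpE and control cultures of replicates 3 and 4 (orange) and of replicates 1, 2 and 5 (blue), with a black line at each mean. The upper panels show adipocyte and regulator genes, of which Thrsp, Gpd1, Cfd, Fasn and Cebpa are lower in replicates 3 and 4 in both treatments and Pparg is not; the lower panels show genes that are higher there.

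The 2 master regulators differed in this respect. Cebpa, which encodes C/EBP-alpha, had 129.7 and 128.9 FPKM with QpE and 131 and 107 FPKM in controls of replicates 3 and 4. Cebpa levels in replicates 1, 2 and 5 were 313.9, 345.7 and 344.8 FPKM with QpE and 228.5, 222.1 and 238.8 FPKM in controls (-1.16). Pparg had 159.5 and 137.8 FPKM with QpE and 68.8 and 59.5 FPKM in controls of replicates 3 and 4, against 107.8, 37.6 and 173.5 FPKM with QpE and 128.5, 114.5 and 114.6 FPKM in controls of replicates 1, 2 and 5. The sets therefore overlapped for Pparg in QpE cultures and separated in controls, with a difference over both treatments of -0.08. Klf15, a zinc finger factor that promotes adipogenesis, was at 0.602 to 1.5 FPKM in replicates 3 and 4 and 9.2 to 26.6 FPKM in replicates 1, 2 and 5 (-2.92). Mlxipl, the glucose-responsive factor ChREBP, was at 0.091 to 1.13 FPKM in replicates 3 and 4 and 3.4 to 6.94 FPKM in replicates 1, 2 and 5 (-1.94). The early factor Cebpb overlapped between the sets (-0.02). Dlk1, the preadipocyte factor Pref-1, also overlapped, at 124.7 to 665 FPKM in replicates 3 and 4 and 118.6 to 814 FPKM in replicates 1, 2 and 5 (-0.26). Of 23 adipogenic regulators 4 were counted lower and none higher (median -0.12). With unnamed transcripts joined 4 were counted lower and the median was -0.42. Of 23 anti-adipogenic regulators 3 were counted higher and none lower: Ddit3, a C/EBP partner that blocks DNA binding (1.14), Id3, an inhibitor of helix-loop-helix factors (1.12), and Snai2, a repressor of epithelial genes (1.04).

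Enzymes of fatty acid synthesis separated the sets as well. With unnamed transcripts joined 9 genes of that list were counted lower, against 7 without joining. Fasn, fatty acid synthase, had 66 and 63.7 FPKM with QpE and 63 and 51.2 FPKM in controls of replicates 3 and 4, against 481.2, 503.6 and 484.4 FPKM with QpE and 274.8, 248.1 and 247.9 FPKM in controls of replicates 1, 2 and 5 (-2.53). The lowest level in replicates 1, 2 and 5 was well above the highest in replicates 3 and 4. Acss2, which makes acetyl-CoA from acetate, was at 13.7 to 20.3 FPKM in replicates 3 and 4 and 39 to 61.2 FPKM in replicates 1, 2 and 5 (-1.43). The acetyl-CoA carboxylase Acaca overlapped between the sets in QpE cultures, with 3 and 9.86 FPKM in replicates 3 and 4 and 29.4, 3.1 and 19 FPKM in replicates 1, 2 and 5. It separated in controls, with 6.91 and 4.04 FPKM in replicates 3 and 4 and 16.8, 16.8 and 17.4 FPKM in replicates 1, 2 and 5 (-1.28). Its mitochondrial relative Acacb was at 3.47 to 9.16 FPKM in replicates 3 and 4 and 4.44 to 6.56 FPKM in replicates 1, 2 and 5, with a difference of 0. Slc2a4, the transporter GLUT4, was at 3.81 to 11.3 FPKM in replicates 3 and 4 and 17.4 to 59 FPKM in replicates 1, 2 and 5 (-2.14). Pde3b, the phosphodiesterase by which insulin restrains lipolysis, was at 5.24 to 9.35 FPKM in replicates 3 and 4 and 19.8 to 38.6 FPKM in replicates 1, 2 and 5 (-1.78).

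Mitochondrial and sterol genes showed smaller gaps with the same sign. Bcat2, the mitochondrial branched-chain aminotransferase, was at 29.1 to 89.1 FPKM in replicates 3 and 4 and 114.7 to 405.9 FPKM in replicates 1, 2 and 5 (-1.98). Mccc1, a leucine-breakdown carboxylase subunit, was at 32.3 to 58.4 FPKM in replicates 3 and 4 and 77.4 to 121.5 FPKM in replicates 1, 2 and 5 (-1.12). In the list of the TCA cycle and branched-chain breakdown 5 of 35 genes were counted lower, and 24 of 35 lay below in both treatments at any size, where 10.8% of all genes did (median -0.55). In the list of beta-oxidation enzymes and PPAR targets 17 of 23 genes lay below and 3 were counted lower (-0.57), with none above. Oxidative phosphorylation had 14 of 36 genes below and 2 above, with 1 counted lower and a median of -0.24. Uqcrc1, a core subunit of complex III, was at 139.8 to 224.1 FPKM in replicates 3 and 4 and 232.6 to 326.6 FPKM in replicates 1, 2 and 5 (-0.61). Cholesterol synthesis and uptake had 11 of 23 genes below and 4 counted lower (-0.57). Pmvk, phosphomevalonate kinase, was at 16.4 to 18.6 FPKM in replicates 3 and 4 and 49.5 to 68.5 FPKM in replicates 1, 2 and 5 (-1.64), and Cyp51, the lanosterol demethylase, was lower as well (-1.24). Of 36 cell cycle genes none was counted in either direction (-0.26).

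Among the genes that were higher in replicates 3 and 4, several neighbours on chromosome 13 stood out by size. Prl2c2, a prolactin-like secreted protein of growing fibroblasts also called proliferin, had 186 and 232.1 FPKM with QpE and 158.1 and 203 FPKM in controls of replicates 3 and 4, against 15.8, 16.3 and 15.5 FPKM with QpE and 19.5, 22.2 and 25.7 FPKM in controls of replicates 1, 2 and 5 (3.29). Gpr137b, a lysosomal membrane protein, had 113 and 109.7 FPKM with QpE and 75.4 and 72.2 FPKM in controls of replicates 3 and 4, against 8.03, 8.65 and 8.24 FPKM with QpE and 9.68, 10.5 and 14.5 FPKM in controls of replicates 1, 2 and 5 (3.10). Prl2c2 differed by 3.63 in QpE cultures and 2.95 in controls, and Gpr137b by 3.59 in QpE cultures and 2.60 in controls. Prl2c2 lies at chr13:12996125-13005383 and Gpr137b at chr13:13357620-13394014 in GRCm38, the build named in the submitters' processing notes. Between them and beside them, Gpr137b-ps (2.76), Prl2c3 (2.34), Prl2c5 (2.63) and the predicted gene Gm7040 (2.51) were also higher, and Nid1, which encodes the basement membrane protein nidogen and lies next to Gpr137b, was higher by 1.20. The predicted genes Gm2399 (0.63), CT030166.5 (-0.35) and Gm2423 (-0.59), which lie among them, were not counted. The genes at either end of the stretch differed less: Heatr1 by 0.26, Lgals8 by 0.36, Ero1lb by 0.53 and Lyst by 0.51. The Prl2c genes are near-identical copies, as are Gpr137b and its pseudogene, so the split of reads among them is uncertain. The plot of these neighbours shows the 12 day gap beside those of 24 h and 6 h. Among the 10 largest positive differences were also Ftl1-ps1 (3.97), a ferritin light chain pseudogene that was called lower at 24 h (-5.81, limma adjusted p = 0.0284), and Rpl23a (3.00), a ribosomal protein gene. The named transcripts of Rpl23a had 184.3 to 411.5 FPKM in replicates 3 and 4. In replicates 1, 2 and 5 they had 157.5 to 297 FPKM with QpE and 0.536, 97.6 and 0.711 FPKM in controls. Unnamed assembled transcripts of that locus held 85.1 to 118.2 FPKM in those controls. They held at most 110.2 FPKM in controls of replicates 3 and 4 and at most 28.4 FPKM with QpE. The levels near 0 therefore depend on how the assembly named transcripts, and the difference of 3.00 counts named transcripts only.

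**Figure D3:**
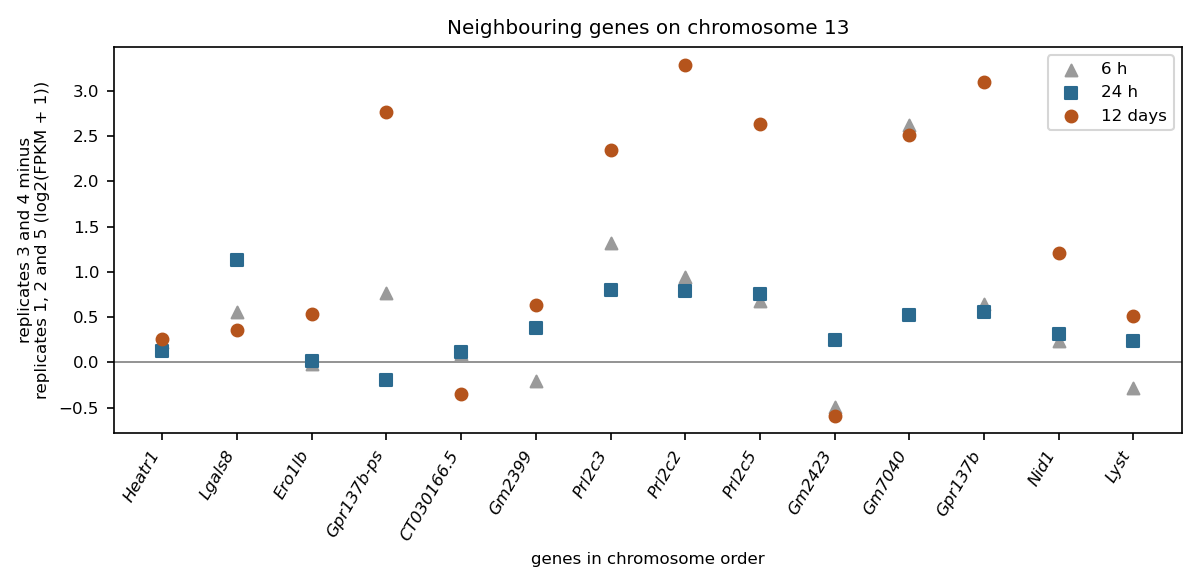
Set difference (replicates 3 and 4 minus replicates 1, 2 and 5, log2(FPKM + 1)) of neighbouring genes in their order along chromosome 13, for 6 h (triangles), 24 h (squares) and 12 days (circles). The Prl2c and Gpr137b genes lie between 2.34 and 3.29 at 12 days and the flanking genes Heatr1 and Lyst at 0.26 and 0.51.

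Secreted signals formed a further group. Grem1, an extracellular antagonist of BMP ligands, had 89.5 and 113.5 FPKM with QpE and 178 and 204.9 FPKM in controls of replicates 3 and 4, against 13.1, 12.9 and 3.13 FPKM with QpE and 31.2, 33.6 and 25.9 FPKM in controls of replicates 1, 2 and 5 (3.04). The chemokine Ccl9 had 26.4 and 26.4 FPKM with QpE and 28.3 and 25 FPKM in controls of replicates 3 and 4, against 1.2, 0.606 and 0.599 FPKM with QpE and 3.32, 4.88 and 3.9 FPKM in controls of replicates 1, 2 and 5 (3.21). Neither gene overlapped between the sets in either treatment. Ccl6, the neighbour of Ccl9 on chromosome 11, was higher by 2.85, at 6.47 to 19.3 FPKM in replicates 3 and 4 and 0.322 to 1.12 FPKM in replicates 1, 2 and 5. Ptgs2, the prostaglandin synthase COX-2, was at 11 to 18.5 FPKM in replicates 3 and 4 and 0.319 to 1.33 FPKM in replicates 1, 2 and 5 (3.14). Spp1, the secreted phosphoprotein osteopontin, had 125 and 119 FPKM with QpE and 147 and 176.2 FPKM in controls of replicates 3 and 4, against 23.9, 16.3 and 13.8 FPKM with QpE and 30, 32.7 and 40.1 FPKM in controls of replicates 1, 2 and 5 (2.47). Ccl2, the chemokine MCP-1, was higher by 1.76. In the inflammatory list the acute-phase proteins went the other way. Lcn2, the iron-siderophore carrier lipocalin 2, was at 2.79 to 13.3 FPKM in replicates 3 and 4 and 32.5 to 78.8 FPKM in replicates 1, 2 and 5 (-2.89). Hp, haptoglobin, differed by -2.24. Both are also known products of adipocytes.

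Some antioxidant and lysosomal genes were higher in replicates 3 and 4. Nqo1, a quinone reductase and textbook NRF2 target, had 55.3 and 55.4 FPKM with QpE and 44.3 and 49.5 FPKM in controls of replicates 3 and 4, against 9, 10.1 and 9.27 FPKM with QpE and 10.6, 13.5 and 12.7 FPKM in controls of replicates 1, 2 and 5 (2.14). Hmox1, the haem-degrading oxygenase, had 781.1 and 620.1 FPKM with QpE and 626.5 and 512.2 FPKM in controls of replicates 3 and 4, against 234, 287.7 and 259.1 FPKM with QpE and 141.9, 184.4 and 152.1 FPKM in controls of replicates 1, 2 and 5 (1.63). Of 25 genes in the metallothionein and NRF2 list 14 lay above in both treatments at any size, where 14% of all genes did, and 3 lay below. Gla, lysosomal alpha-galactosidase, was at 23.1 to 25.2 FPKM in replicates 3 and 4 and 4.17 to 9.59 FPKM in replicates 1, 2 and 5 (1.62). In all, 17 of 27 lysosomal genes lay above and none below. Ribosomal protein genes had 15 of 32 above and none below, 1 counted higher, and a median of 0.39.

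Some interferon-stimulated genes separated the sets. Bst2, the virus-tethering protein tetherin, was at 31.3 to 63.2 FPKM in replicates 3 and 4 and 8.7 to 17.5 FPKM in replicates 1, 2 and 5 (1.75). Ifit1, an RNA-binding restriction factor, was at 3.9 to 8.99 FPKM in replicates 3 and 4 and 0.244 to 2.08 FPKM in replicates 1, 2 and 5 (1.85). The class I histocompatibility gene H2-K1 was lower, at 40.7 to 46.4 FPKM in replicates 3 and 4 and 78.7 to 136.9 FPKM in replicates 1, 2 and 5 (-1.30). In that list 6 of 26 genes were counted higher and 1 lower, and without QpE replicate 5 the counts were 3 and 1. Of 18 clock genes 4 were counted higher and 1 lower. Nr1d1, the repressor REV-ERB-alpha, was at 31.9 to 58.9 FPKM in replicates 3 and 4 and 10.1 to 30 FPKM in replicates 1, 2 and 5 (1.33). Bhlhe40, a transcriptional repressor, was higher by 1.38. Hk1, hexokinase 1, was at 24.2 to 28 FPKM in replicates 3 and 4 and 6.69 to 12.1 FPKM in replicates 1, 2 and 5 (1.30).

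Some fibroblast surface genes were higher in replicates 3 and 4, while the fibroblast and matrix lists depended on a single library. Ly6a, the stem and progenitor antigen Sca-1, was at 40.3 to 45.6 FPKM in replicates 3 and 4 and 10.2 to 18 FPKM in replicates 1, 2 and 5 (1.60), and Thy1, the fibroblast antigen CD90, was higher by 1.25. These 2 were among 4 of 18 preadipocyte and fibroblast markers counted higher, with none lower and a list median of 0.37. Without QpE replicate 5 that list had 3 counted higher and a median of 0.02. Of 49 extracellular matrix genes 7 were counted higher and none lower, with a median of 0.24. Without QpE replicate 5, a library with the lowest mean level of the matrix list among QpE cultures, the counts were 5 higher and 5 lower and the median 0.01. Dcn, the small proteoglycan decorin, had 275.3 and 362 FPKM with QpE and 1171.8 and 1167.3 FPKM in controls of replicates 3 and 4, against 349.5, 373.2 and 26.4 FPKM with QpE and 1016.4, 1029.3 and 1145 FPKM in controls of replicates 1, 2 and 5 (0.59). Only replicate 5 of the QpE cultures was far from the others. Col1a1, the alpha-1 chain of type I collagen, likewise had 87.1 FPKM in QpE replicate 5 and 423.8 and 461.8 FPKM in QpE replicates 1 and 2, between which and replicates 3 and 4 (300.8 and 378.1 FPKM) the order was the opposite. The matrix proteases Mmp3 and Mmp13 were counted higher (1.43 and 1.31), with 0.846 and 0.213 FPKM in QpE replicate 5. In the protease list 5 of 22 were counted higher with that library, and 3 higher and 1 lower without it. The adipocyte list was counted lower in 17 of 24 without that library and in 15 with it.

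Set beside the 24 h libraries of the same numbers, the adipocyte genes had moved less in replicates 3 and 4. For the 24 adipocyte markers the median 12 day minus 24 h difference was 2.54 with QpE and 1.85 in controls of replicates 3 and 4, against 3.40 with QpE and 3.23 in controls of replicates 1, 2 and 5. All 4 medians were above 0. Fatty acid synthesis had medians of 0.28 and 0.04 in QpE and control cultures of replicates 3 and 4 against 1.55 and 0.95 in those of replicates 1, 2 and 5. Cholesterol synthesis and uptake had opposite signs, at -0.19 and -0.35 in replicates 3 and 4 against 0.90 and 0.77 in replicates 1, 2 and 5. Cell cycle genes stood lower at 12 days than at 24 h in all 4 groups, at -1.86 and -1.58 in QpE and control cultures of replicates 3 and 4 and -1.22 and -1.09 in those of replicates 1, 2 and 5. These values share the 12 day libraries that chose the split and carry no test. Adipocyte genes thus stood above their 24 h level in replicates 3 and 4 as well.

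**Figure D4:**
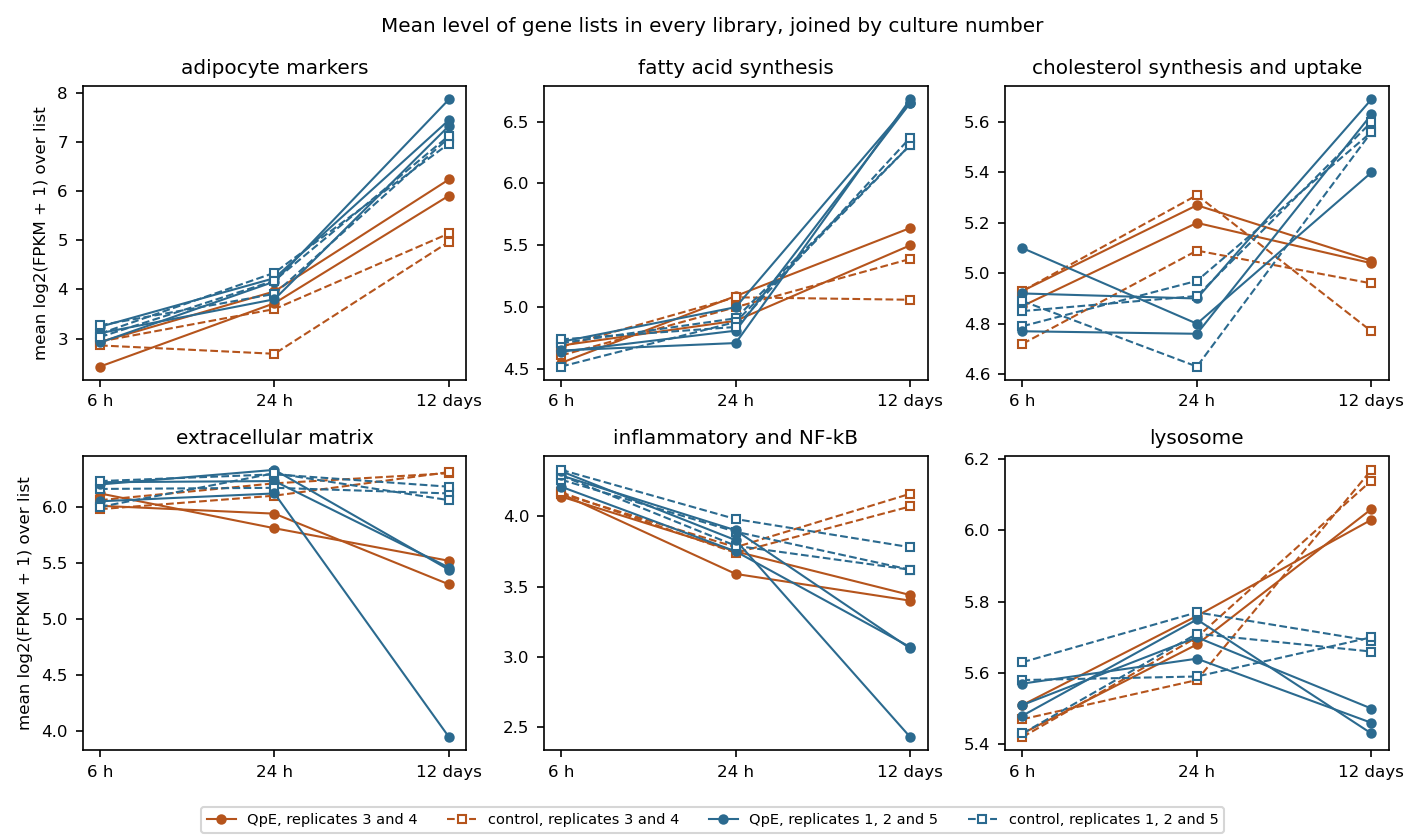
Mean log2(FPKM + 1) of gene lists in each library at 6 h, 24 h and 12 days, with culture replicates 3 and 4 and replicates 1, 2 and 5 in separate colours, QpE cultures as filled and control cultures as open symbols; lines join libraries that carry the same number. The adipocyte and fatty acid synthesis lists separate the sets at 12 days and overlap or nearly overlap at 6 h and 24 h.

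Whether the split was already there at 24 h can be tested, because those libraries did not choose it. Of 12744 genes 168 passed limma's adjusted p of 0.05 (1.32%), 75 higher (0.589%) and 93 lower (0.73%) in replicates 3 and 4, and with TPM scaling the split was 45 higher and 131 lower. The call count rests on few libraries. It was 2 and 2 when the QpE and control libraries of a number were averaged, and 1 and 1 without QpE replicates 1 and 5, the 2 libraries highest for AY036118, a gene model known to collect ribosomal RNA reads. That transcript reached 9397.9 FPKM in replicates 1, 2 and 5 at 24 h against at most 1821.1 FPKM in replicates 3 and 4, and its part in the result was not tested. Leaving out single libraries or numbers gave 0 to 59 higher and 1 to 66 lower. Atf6 had the smallest p (-3.11, limma adjusted p = 8.66e-07) and also passed when the libraries of a number were averaged (0.0131). Once unnamed transcripts were joined, Atf6 differed by -0.125 (limma adjusted p = 0.247). Ercc5, also called higher, went from 1.03 to 0.16 (limma adjusted p = 0.196). These 2 calls therefore depend on how the assembly named transcripts. Among the 257 genes counted lower at 12 days, 70.8% had a 24 h difference below 0, against 46.6% of all genes, 8 were called lower (3.11%) and none higher. Of the 192 counted higher at 12 days, 32.8% were below 0, 12 were called higher (6.25%) and 5 lower (2.6%). Across all genes the 12 day and 24 h set differences had Pearson's r = 0.16 and Spearman's rho = 0.18, and the QpE and control libraries of 24 h had r = 0.15 and rho = 0.26 with each other.

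Some genes that were higher at 12 days were also called higher at 24 h. Gpr137b had 46.6 and 47.3 FPKM with QpE and 38.9 and 39.9 FPKM in controls of replicates 3 and 4 at 24 h, against 30.8, 28.3 and 31.1 FPKM with QpE and 28.7, 25.3 and 29.2 FPKM in controls of replicates 1, 2 and 5 (0.56 ± 0.06, SE; limma adjusted p = 0.00768). Prl2c2 (0.79, limma adjusted p = 0.0206), Grem1 (0.84, 0.027), Nqo1 (0.93, 0.0238), Ly6a (0.47, 0.0206) and Arrdc3, an arrestin-like adaptor (0.45, 0.0108), were also called higher. Among the other calls Wwp2, a ubiquitin ligase, had 16, 15.5, 15.7 and 15.5 FPKM in replicates 3 and 4 against 9.45 to 10.6 FPKM in replicates 1, 2 and 5 at 24 h (0.59 ± 0.05, limma adjusted p = 0.00517). With the most abundant transcript only, Wwp2 differed by 0.14 (limma adjusted p = 0.436) and Gpr137b by 0.86 (0.107). With the libraries of a number averaged, the limma adjusted p was 0.188 for Wwp2 and 0.218 for Gpr137b. The sets were separate in both treatments for Gpr137b and Wwp2. For Spp1 the 24 h difference was 0.36 (limma adjusted p = 0.0511) and did not pass, and for Ccl9 it was 0.03 (0.93).

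The adipocyte genes themselves were mostly below the threshold at 24 h. Mrap had 1.22 and 0.475 FPKM with QpE and 1.18 and 0.454 FPKM in controls of replicates 3 and 4, against 3.92, 4.78 and 3.15 FPKM with QpE and 3.07, 4.17 and 4.27 FPKM in controls of replicates 1, 2 and 5 (-1.44 ± 0.17, limma adjusted p = 0.0163). Adipoq had 39.4 and 23.7 FPKM with QpE and 34.4 and 13.4 FPKM in controls of replicates 3 and 4, against 56.1, 68.8 and 50.7 FPKM with QpE and 63.7, 77.2 and 101.2 FPKM in controls of replicates 1, 2 and 5 (-1.36, limma adjusted p = 0.0665). The sets did not overlap for either gene. Of 24 adipocyte markers only Cd36 was called (-1.32, limma adjusted p = 0.0382), and the list median was -0.39 against 0.01 over all genes. With unnamed transcripts joined 5 adipocyte markers were called lower and 1 higher (median -0.56). The calls were 0 when the libraries of a number were averaged and 0 without QpE replicates 1 and 5. Fasn had 47.1 to 57.9 FPKM in replicates 3 and 4 and 49 to 56.7 FPKM in replicates 1, 2 and 5 at 24 h (-0.02, 95% interval -0.17 to 0.14), where at 12 days the difference was -2.53. Pparg (0.03, limma adjusted p = 0.945) and Cebpa (-0.44, 0.247) were not called.

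Some matrix genes were lower in replicates 3 and 4 at 24 h. Of 49 extracellular matrix genes 10 were called lower and none higher (median -0.11), and with unnamed transcripts joined 14 were called lower and 4 higher. Col1a1 had 706.5 and 722.9 FPKM with QpE and 869.2 and 846.1 FPKM in controls of replicates 3 and 4, against 1090, 970.8 and 948.3 FPKM with QpE and 1186.7, 1119.6 and 1135.5 FPKM in controls of replicates 1, 2 and 5 (-0.45 ± 0.06, limma adjusted p = 0.0214). Postn, the matricellular protein periostin, had 429.6 and 408.7 FPKM with QpE and 785.7 and 711.3 FPKM in controls of replicates 3 and 4, against 860.9 to 1093.1 FPKM with QpE and 1129.4 to 1431.3 FPKM in controls of replicates 1, 2 and 5 (-0.97, limma adjusted p = 0.0206). Creb3l1, a membrane-bound factor that drives collagen transcription (-0.65, limma adjusted p = 0.00524), Rcn3, a chaperone of collagen in the ER (-0.50 ± 0.04, 0.00517), Ctsk, the collagen-cleaving cathepsin K (-0.69 ± 0.06, 0.00517), and Mmp13 (-1.31, 0.0232) were lower too. Mmp3 and Mmp13 had the opposite sign at 12 days. The matrix calls were 0 when the libraries of a number were averaged and 0 without QpE replicates 1 and 5. They were 0 to 8 when single libraries were left out. Saa3, an acute-phase protein of fibroblasts and adipocytes, had 9.68 and 5.96 FPKM with QpE and 10.1 and 3.12 FPKM in controls of replicates 3 and 4, against 34.5, 48 and 36.1 FPKM with QpE and 39, 35 and 39.3 FPKM in controls of replicates 1, 2 and 5 (-2.37 ± 0.26, limma adjusted p = 0.0108), and at 12 days it overlapped (0.24).

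The median of the cholesterol genes had opposite signs at 24 h and 12 days. At 24 h 3 of 23 were called higher in replicates 3 and 4 and none lower (median 0.31). The count was 1 with TPM and with median-ratio scaling, and 9 with unnamed transcripts joined. It was 0 when the libraries of a number were averaged and 0 without QpE replicates 1 and 5. When single libraries were left out it was 0 to 1. Idi1, the isopentenyl-diphosphate isomerase, had 64.5 and 49.2 FPKM with QpE and 52.6 and 55.1 FPKM in controls of replicates 3 and 4 against 34.8 to 43.9 FPKM in replicates 1, 2 and 5 (0.50, limma adjusted p = 0.0436). The others were Insig1, the sterol-sensing brake on SREBP (0.29, limma adjusted p = 0.0448), and Stard4, a cholesterol carrier (0.52, 0.0206). At 12 days the list median was -0.57, and Insig1 differed by -0.93. The difference between the 2 times was not tested.

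At 6 h 846 genes were called (6.64%), 380 higher (2.98%) and 466 lower (3.66%). Of 23 contractile genes 12 were called higher in replicates 3 and 4 and none lower (median 0.52 against -0.01 over all genes). When single libraries were left out, 7 to 11 were called higher. Of 24 adipocyte markers 5 were called lower and none higher (median -0.28). Leaving out single libraries gave 2 to 5 lower and 0 to 2 higher for that list. Spp1 (1.02, limma adjusted p = 2.5e-04), Nqo1 (0.82, 2.9e-04), Prl2c2 (0.94, 0.00103), Gpr137b (0.64, 0.017) and Ptgs2 (1.09, 0.0109) were already higher at 6 h, Ccl9 by 0.41 (0.0336). Adipoq was lower, with 6.58 and 4.3 FPKM with QpE and 7.91 and 5.28 FPKM in controls of replicates 3 and 4 against 19.6 to 24.9 FPKM with QpE and 21.9 to 31.1 FPKM in controls of replicates 1, 2 and 5 (-1.83, limma adjusted p = 6.0e-04). Of the 257 genes counted lower at 12 days 33 were called lower at 6 h (12.8%) and 3 higher, and of the 192 counted higher 33 were called higher (17.2%) and 7 lower. Averaging the QpE and control libraries of each number left 86 higher and 75 lower at 6 h.

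The response to QpE at 12 days was then compared between the sets. In replicates 3 and 4 limma called 653 genes (5.12%), 487 higher (3.82%) and 166 lower (1.3%) with QpE, and in replicates 1, 2 and 5 it called 1310 (10.3%), 627 higher (4.92%) and 683 lower (5.36%). With TPM scaling the splits were 223 and 192 in replicates 3 and 4 and 462 and 833 in replicates 1, 2 and 5. Without the library of QpE replicate 5 the calls within replicates 3 and 4 were 1051 higher and 905 lower, and leaving out other single libraries or numbers gave as few as 10 higher and 4 lower there and 14 higher and 10 lower in replicates 1, 2 and 5. With the replicate number as a block the calls were 1 higher and 1 lower in replicates 3 and 4 and none in replicates 1, 2 and 5, at 3 residual degrees of freedom in place of 6, while 2724 and 3399 genes had an unadjusted p under 0.05. Across genes the 2 effects had Pearson's r = 0.46 and Spearman's rho = 0.49. A count in 1 set and not in the other shows no difference by itself, so the difference between the effects was tested as an interaction. In that test 8 of 12744 genes passed (0.0628%), 4 with a more positive QpE effect in replicates 3 and 4 (0.0314%) and 4 with a more negative one (0.0314%). The split was 3 and 6 with median-ratio scaling. Unadjusted, 1233 genes had p under 0.05, and with the replicate block none passed the adjusted threshold (1136 unadjusted).

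The genes called for that difference include enzymes of glycolysis. Ldha, the lactate dehydrogenase that turns pyruvate into lactate, had 400.9 and 396.6 FPKM with QpE and 406.5 and 425.9 FPKM in controls of replicates 3 and 4, against 847.8, 983.9 and 1083.7 FPKM with QpE and 372.9, 364.8 and 372 FPKM in controls of replicates 1, 2 and 5. All groups but QpE replicates 1, 2 and 5 lay between 364.8 and 425.9 FPKM. The QpE effect was -0.06 in replicates 3 and 4 (limma adjusted p = 0.812) and 1.38 in replicates 1, 2 and 5 (0.00133), and the 2 differed by -1.45 ± 0.16 (SE; limma adjusted p = 0.0354, 95% interval -1.81 to -1.08). Pfkl, a phosphofructokinase subunit, had 41.4 and 42.3 FPKM with QpE and 48.4 and 53.6 FPKM in controls of replicates 3 and 4, against 85.6, 92.4 and 91.4 FPKM with QpE and 56.4, 58.6 and 54.9 FPKM in controls of replicates 1, 2 and 5 (-0.93 ± 0.11, limma adjusted p = 0.0401). Serpinb6a, an intracellular serine protease inhibitor, went the other way, with 135.2 and 138.9 FPKM with QpE and 94.8 and 95.2 FPKM in controls of replicates 3 and 4, against 38.3, 38 and 34.6 FPKM with QpE and 48.7, 48.4 and 53.2 FPKM in controls of replicates 1, 2 and 5 (0.95 ± 0.11, limma adjusted p = 0.0401). With the block the adjusted p of these 3 genes was 0.273, 0.281 and 0.345, and with unnamed assembled transcripts joined to the genes they overlap it was 0.0546 for each. For Ldha it ranged from 0.0321 to 0.259 when single libraries or numbers were left out, and for Serpinb6a it was 0.0715 with TPM scaling. Of the other 5 calls, 3 depended on how the assembly named transcripts. Once the unnamed transcripts of each locus were joined, the difference of 3.69 became 0.10 for Iars, 5.02 became 0.36 for Dazap2 and -2.21 became -0.32 for Zfp362. No unnamed transcript was joined to the predicted genes Gm20521 (3.29) and Gm27325 (-3.79), so that check could not change their differences. Their limma adjusted p was 0.0377 and 0.0249 in the joined fit and 0.239 for each with the block.

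In the list of glycolytic and hypoxia-inducible genes Ldha and Pfkl were the 2 genes that passed the interaction test. Of 28 genes in that list 1 was called higher with QpE in replicates 3 and 4 (median -0.04) and 15 in replicates 1, 2 and 5 (median 0.86), and the interaction had a median of -0.94 against 0.06 over all genes. Without QpE replicate 5 the calls were 4 higher and 3 lower in replicates 3 and 4 against 14 higher in replicates 1, 2 and 5. With the replicate block they were 0 in both sets. Bnip3, a hypoxia-inducible mitophagy receptor, was the gene called in replicates 3 and 4 (0.98, limma adjusted p = 0.0212). Pgk1, phosphoglycerate kinase, had 446.3 and 413 FPKM with QpE and 357.2 and 379.9 FPKM in controls of replicates 3 and 4, against 621.9, 708 and 738.5 FPKM with QpE and 300.1, 285.2 and 239.6 FPKM in controls of replicates 1, 2 and 5 (interaction -1.11, limma adjusted p = 0.11). Pdk1, the kinase that shuts pyruvate dehydrogenase (-1.50, limma adjusted p = 0.0573), and Tpi1, triosephosphate isomerase (-1.17, 0.071), also missed it. The plot of QpE effects by set places most of these genes above the line of equal effects.

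**Figure D5:**
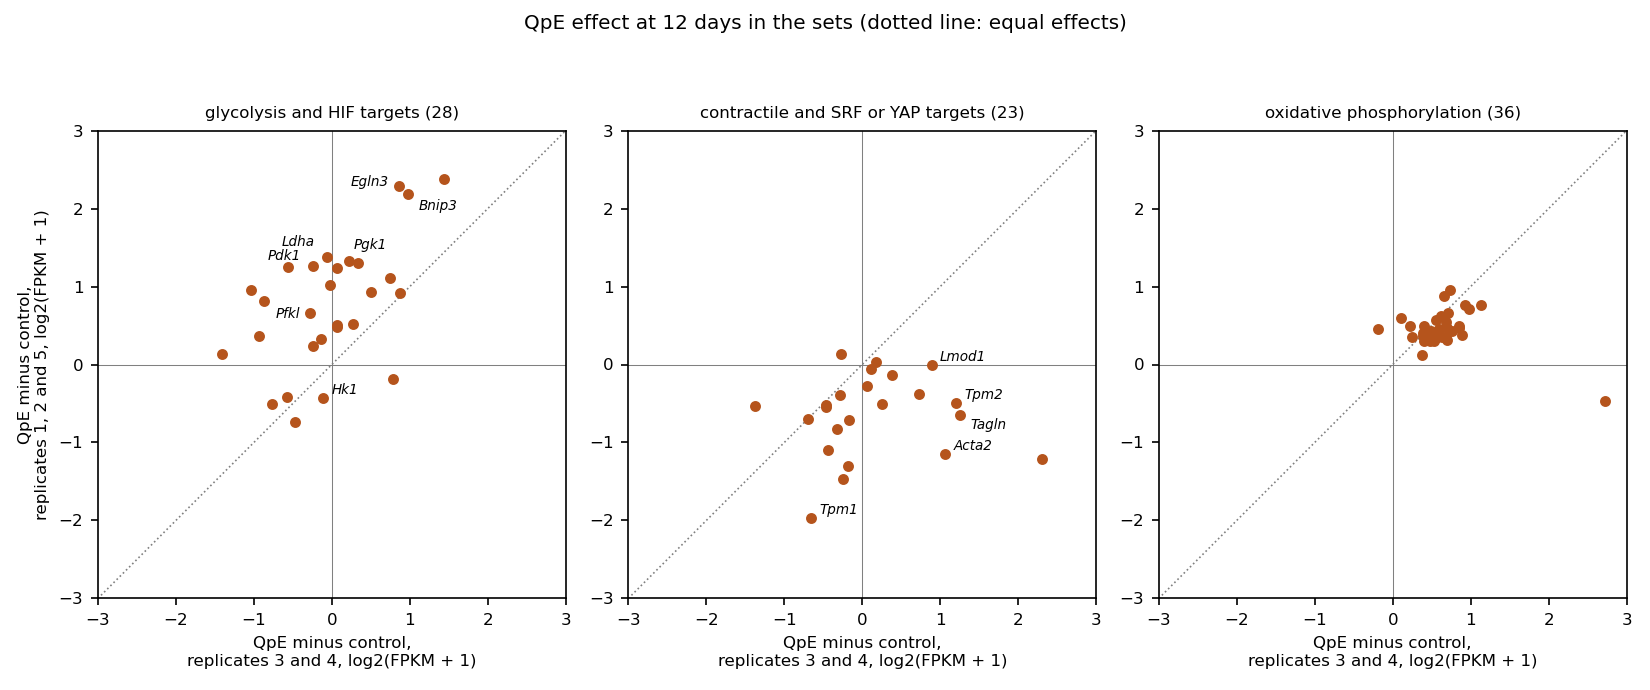
QpE minus control at 12 days (log2(FPKM + 1)) in replicates 3 and 4 (x axis) and in replicates 1, 2 and 5 (y axis), one point per gene, for glycolysis and HIF targets, contractile and SRF or YAP targets, and oxidative phosphorylation; the dotted line marks equal effects. Glycolytic genes such as Ldha lie near 0 on the x axis and above 0 on the y axis, Acta2 and Tagln lie right of 0 and below it, and most oxidative phosphorylation genes lie above 0 on both axes.

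Hypoxia-inducible factor can bind the letters ACGTG, a form of the core of the hypoxia response element. Promoters of 3 glycolytic genes with different outcomes are therefore shown, from 250 bases before to 50 bases after the start site. They are from RefSeq (GRCm38.p6), 5′ to 3′ on the gene's strand, with ACGTG and CACGTG on either strand in capitals. The other form of the core, GCGTG, stands in the Ldha and Pfkl windows and was neither marked nor counted. Ldha and Pfkl passed the interaction test and Pgk1 did not. Their positions are chr7:46845554-46845853 on the plus strand for Ldha, chrX:106186850-106187149 on the plus strand for Pgk1 and chr10:78009758-78010057 on the minus strand for Pfkl.
Ldha: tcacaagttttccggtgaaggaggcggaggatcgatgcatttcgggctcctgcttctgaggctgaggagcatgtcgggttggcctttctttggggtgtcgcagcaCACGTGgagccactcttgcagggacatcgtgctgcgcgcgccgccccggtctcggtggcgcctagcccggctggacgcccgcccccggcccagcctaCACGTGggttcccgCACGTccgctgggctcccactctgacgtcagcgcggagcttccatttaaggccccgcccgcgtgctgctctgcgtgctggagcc
Pgk1: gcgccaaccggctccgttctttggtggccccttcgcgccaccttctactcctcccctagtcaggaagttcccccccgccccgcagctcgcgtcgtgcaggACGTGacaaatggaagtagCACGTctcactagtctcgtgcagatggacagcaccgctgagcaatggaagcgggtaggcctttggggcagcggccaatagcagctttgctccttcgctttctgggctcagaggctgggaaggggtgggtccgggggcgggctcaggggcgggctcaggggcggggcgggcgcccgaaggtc
Pfkl: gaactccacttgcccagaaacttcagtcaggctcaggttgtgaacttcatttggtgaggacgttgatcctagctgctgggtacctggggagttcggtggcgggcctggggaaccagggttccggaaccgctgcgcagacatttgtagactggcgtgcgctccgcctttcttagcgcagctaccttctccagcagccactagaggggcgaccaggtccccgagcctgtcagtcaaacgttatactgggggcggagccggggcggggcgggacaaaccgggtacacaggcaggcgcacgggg
Ldha has 3 stretches in capitals, Pgk1 has 2 and Pfkl none in this window. Ldha has 2 promoters on record, and the first that holds ACGTG on either strand is shown. Pgk1 and Pfkl have 1 each, so the numbers of stretches are not a like comparison. ACGTG on either strand, which overlaps the E-box CACGTG, stood in 18 of 25 promoters of the glycolysis and HIF list (72%), in 8 of 16 of the fatty acid synthesis list (50%), in 2 of 17 of the contractile list (11.8%) and in 5886 of 27025 genes with a promoter (21.8%). The match describes letters and not binding.

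Among contractile genes the calls within the sets had opposite signs, but no gene of that list passed the interaction test in the main fit. Acta2, smooth muscle actin and a target of SRF, had 155 and 156.1 FPKM with QpE and 70.2 and 78.2 FPKM in controls of replicates 3 and 4, against 36, 26 and 20.5 FPKM with QpE and 62.8, 55.6 and 64.3 FPKM in controls of replicates 1, 2 and 5. It rose with QpE in replicates 3 and 4 (1.06, limma adjusted p = 0.0357) and fell in replicates 1, 2 and 5 (-1.15, 0.0151), and the interaction of 2.21 had an adjusted p of 0.0573. Of 23 contractile genes 4 rose and none fell in replicates 3 and 4, Tagln, Tpm2 and Lmod1 besides Acta2, and none rose and 7 fell in replicates 1, 2 and 5, Tpm1 (-1.97) among them. With TPM scaling the counts were 2 rising in replicates 3 and 4 and 9 falling in replicates 1, 2 and 5, and without QpE replicate 5 they were 4 rising and 3 falling in replicates 3 and 4 and 8 falling in replicates 1, 2 and 5. With the replicate block the calls were 0 in both sets. When single libraries were left out, 0 to 4 rose in replicates 3 and 4 and 0 to 8 fell in replicates 1, 2 and 5. The sign of the list's median was the same in both sets (-0.16 and -0.53).

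Oxidative genes rose with QpE in both sets, by counts that depended on the fit. In oxidative phosphorylation 18 of 36 genes rose in replicates 3 and 4 (median 0.59) and 18 of 36 in replicates 1, 2 and 5 (0.43). In the TCA cycle and branched-chain list 21 of 35 rose in replicates 3 and 4 (0.72) and 22 of 35 in replicates 1, 2 and 5 (0.47). No gene of either list fell in either set. With the replicate block the calls of both lists and of the adipocyte markers were 0 in both sets. When single libraries were left out, oxidative phosphorylation had 0 to 24 rising genes in replicates 3 and 4 and 0 to 16 in replicates 1, 2 and 5. The TCA cycle list had 2 to 23 in replicates 3 and 4 and 1 to 19 in replicates 1, 2 and 5. Adipocyte markers rose in 7 of 24 and fell in none in replicates 3 and 4 (0.98), and rose in 9 and fell in 1 in replicates 1, 2 and 5 (0.61). Fabp4 rose by 2.12 in replicates 3 and 4 (limma adjusted p = 0.00823). Its effect in replicates 1, 2 and 5 was 0.50 (limma adjusted p = 0.0897), and the interaction of 1.62 had a limma adjusted p of 0.11. Extracellular matrix genes fell in 13 of 49 in replicates 1, 2 and 5 and in none in replicates 3 and 4, with medians of -0.90 in replicates 3 and 4 and -1.25 in replicates 1, 2 and 5. Without the library of QpE replicate 5, 24 of 49 fell in replicates 3 and 4 and 24 of 49 in replicates 1, 2 and 5, so the count in 1 set rests on that library.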

How the data were processed

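RNA of 30 3T3-L1 cultures, 5 per treatment and time, was sequenced from a directional mRNA kit as 75 bp paired reads, per the labels' protocols. The authors deposited a table of FPKM per assembled transcript, and the submitters' processing notes name HISAT, HISAT2, StringTie and the build GRCm38. The sources used here give neither versions nor the strand setting, so overlapping genes cannot be told apart. In 10 libraries the deposited FPKM columns hold values just below 0 and are recorded as a score (11 values, lowest -7e-05); they were set to 0. Of 150146 transcripts 133887 carry a gene name. Their FPKM were summed per gene, and 12744 genes of at least 1 FPKM in at least 5 libraries were tested as log2(FPKM + 1) with limma 3.58.1 (trend; R 4.3.3), with Benjamini-Hochberg adjustment over all of them and a threshold of 0.05. The pipeline was checked on simulated data. Depth per library was estimated from the FPKM steps, and the FPKM of a library total 413502.5 to 500489.1.

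The fits at 24 h and 6 h held treatment and set, and the fit at 12 days held 4 groups of treatment and set. Set members and the 36 gene lists were chosen with earlier results of these data known. Genes named were taken, not exhaustively, from the 10 largest differences in each direction at 12 days among those of at least 5 FPKM, up to 4 per list by size, up to 8 called per direction in each test, and a fixed set of adipocyte and fibroblast genes. The neighbours on chromosome 13 and AY036118, Postn, Idi1, Insig1, Pgk1, Pdk1, Tpi1, Bnip3, Tpm1, Tpm2 and Lmod1 were named after their values were seen. At 12 days the deviations of same-numbered QpE and control libraries from their treatment means correlated at 0.15 to 0.32 over the 5 numbers, all above 0.1, so the numbers were taken to pair the libraries. That pairing comes from the data and not from a label, and after removing set means the correlations were -0.01 to 0.07. Deviations from treatment means correlated at 0.02 to 0.14 at 24 h and at 0.03 to 0.15 at 6 h, so there the numbers were not taken to pair. The main fits at 24 h and 6 h therefore treated the libraries of a number as separate, although the set varies only between the 5 numbers. The main fit at 12 days held no replicate block either. Alternatives were another pseudocount (0.1), filters, scalings (TPM, median ratio), the most abundant transcript, unnamed transcripts joined to genes, all libraries in the fit, a replicate block, and leaving out libraries.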

Additional observations from a re-analysis of the deposited data

Results flagged for a closer look

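Of 64 groups of 5 libraries examined at 12 days, 4 had a library far from the other 4, where chance gives about 1 in 20. The number of flags is thus near what chance alone gives, and the flags are listed as a description. The library of QpE replicate 5 had a Dcn level of 26.4 FPKM against 275.3 to 373.2 FPKM in the other QpE libraries. Its mean level of the extracellular matrix list was 3.95 on the log2(FPKM + 1) scale against 5.31 to 5.52 in the others. Control replicate 5 had 814 FPKM of Dlk1 against 606 to 665 FPKM in the other controls. Control replicate 1 had 935.6 FPKM of Col1a1 against 1053.5 to 1099.9 FPKM.

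For 8 genes the QpE effect at 12 days differed between replicates 3 and 4 and replicates 1, 2 and 5 by the limma interaction test. The differences were -1.45 for Ldha, -0.93 for Pfkl and 0.95 for Serpinb6a. They were 3.69 for Iars, 5.02 for Dazap2 and -2.21 for Zfp362, and 0.10, 0.36 and -0.32 once the unnamed transcripts of those loci were joined. No unnamed transcript was joined to the predicted genes Gm20521 (3.29) and Gm27325 (-3.79), so joining could not change their differences. None of the 8 passed with the replicate block.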

How the results depend on the processing

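Counts are given as higher and lower in replicates 3 and 4, or with QpE. Counted at 12 days (192 and 257), genes numbered 309 and 387 with a pseudocount of 0.1, 250 and 406 in control libraries alone, 491 and 447 in QpE libraries alone, and 181 to 284 and 260 to 373 when single libraries or numbers were left out. The 24 h calls (75 and 93) were 30 and 34 with no filter, 125 and 115 at a mean of at least 5 FPKM, 45 and 131 with TPM scaling, 19 and 26 with the most abundant transcript, 252 and 211 with unnamed transcripts joined, 171 and 133 with all 30 libraries, 2 and 2 with the replicate block as means of both treatments, 3 and 5 in controls alone, 2 and 1 with QpE alone, 1 and 1 without both QpE libraries of high AY036118, and 0 to 59 and 1 to 66 in leave-one-out fits. The 6 h calls (380 and 466) were 255 and 287 with no filter, 216 and 265 with the most abundant transcript, 637 and 806 joined, 86 and 75 with the replicate block as means, 0 and 0 in controls alone, 1 and 0 with QpE alone, and 65 to 370 and 69 to 445 in leave-one-out fits. In the joined table Cbx1 reversed at 6 h (-0.084, limma adjusted p = 0.599).

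The interaction calls (4 and 4) were 29 and 35 with no filter, 5 and 8 at a mean of at least 5 FPKM, 8 and 12 with the most abundant transcript, 1 and 1 joined, 93 and 68 with all 30 libraries, 0 and 0 with the replicate block, and 0 to 22 and 0 to 16 in leave-one-out fits. QpE calls within replicates 3 and 4 (487 and 166) were 223 and 192 with TPM scaling, 255 and 76 with the most abundant transcript, 831 and 404 joined, 1160 and 910 with all 30 libraries, 1 and 1 with the replicate block, and 10 to 1051 and 4 to 905 in leave-one-out fits. Within replicates 1, 2 and 5 (627 and 683) they were 305 and 278 with no filter, 326 and 298 with the most abundant transcript, 1071 and 1388 joined, 1261 and 1621 with all 30 libraries, 0 and 0 with the replicate block, and 14 to 523 and 10 to 711 in leave-one-out fits. Fewer libraries and residual degrees of freedom enter the block and leave-one-out fits; the cause of the other changes was not tested. At 12 days 2 of 5 libraries correlated best with their own number, those of replicates 4 and 5. At 6 h those of replicates 1, 2, 3 and 4 did, and at 24 h those of replicates 1, 2 and 4. Depth limits genes near the filter.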
